A study of Mus musculus with 8 samples.

Results

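Amino acid transporter genes of the cell surface were described in plasmablasts that lack Jagn1. The members are 10 mouse genes fixed by name, with earlier results of these data known. They are grouped by the substrates their proteins carry, with Slc3a2 placed beside its light chain Slc7a5. Slc7a5, Slc3a2 and Slc43a1 serve large neutral amino acids, Slc7a1, Slc7a3 and Slc7a6 cationic ones, and Slc1a4, Slc1a5, Slc38a2 and Slc38a7 small neutral ones. All 10 were among the 24413 gene symbols measured, and all 10 passed the filter on low counts, which left 9904 genes.

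A cell takes up amino acids through carriers that differ in what they bind and in what drives them. Exchangers such as the SLC7A5-SLC3A2 dimer, also called LAT1-CD98, bring in leucine and other large neutral amino acids while another amino acid leaves. Uniporters such as the CAT proteins let arginine and lysine in along the membrane potential, and sodium-coupled carriers such as SNAT2 concentrate alanine, serine and glutamine. Plasmablasts make antibody at a high rate and draw on this supply. Several of the genes are known targets of ATF4, the transcription factor of the integrated stress response, and of MYC.

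Splenic B220+ B cells of C57BL/6J mice were cultured in IMDM medium with 2 mM glutamine and 50 µM 2-mercaptoethanol. Lipopolysaccharide (LPS) at 25 µg/ml, a bacterial stimulus of B cell proliferation and antibody secretion, was present over 4 days, after which CD22-CD138+ plasmablasts were sorted. In the 4 knockout libraries the mice were Jagn1fl/fl Mb1Cre+, where the Cre recombinase comes from the Cd79a locus (Mb1) and acts in the B lineage from its early stages on, and Jagn1 codes for an endoplasmic reticulum membrane protein. In the 4 control libraries they were Jagn1fl/fl with no Cre listed, so the Cre and the loss of Jagn1 cannot be told apart, while all mice carried the floxed alleles. The study's design text gives 4 mice per genotype, the labels give no age or sex, and the comparison asks how transcripts of these cells differ once Jagn1 is lost. Spread between these libraries is what the p-values rest on.

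Library totals ran from 7162089 to 8262474 counts in knockout libraries and from 5882912 to 10066661 in control libraries, and a count of 0 allowed up to 0.298 to 0.510 CPM, counts scaled to a common library total, at the floor of 3 counts, which covers counting error only. Jagn1 itself gave 1 or 2 counts in each knockout library and 16 to 99 in each control library (log2 fold change -4.81 ± 0.73, edgeR adjusted p = 0.000818), in the direction the labels give. Which exons were deleted was not known here. Control replicates 1 and 4 stood apart from the others: their root mean square deviation from the group mean was 0.594 and 0.581 log2 units. It was 0.324 to 0.388 in knockout libraries and 0.407 and 0.432 in the remaining control libraries. Values without them are given where they matter. Of the plasmablast markers 3 of 6, Sdc1, Tnfrsf17 and Jchain, were lower in the knockout, as were 3.19% of all genes tested. Prdm1, Irf4 and Xbp1 were not called. Among the control libraries each of them was lowest in replicate 1 and highest in replicate 4. Xbp1 ran from 106 to 559 CPM in control and from 186 to 240 CPM in knockout libraries. Its 95% interval of -1.18 to 0.40 on the log2 scale was wide, so the lack of a call does not show equal levels. The list summed to 4564 to 6930 CPM in knockout and 6928 to 11726 CPM in control libraries. Most of this sum was Jchain, at 3318 to 5473 CPM in knockout and 5758 to 10015 CPM in control libraries. Of 6 markers of undifferentiated B cells 5 were tested, with none past the threshold in edgeR, DESeq2 or limma-voom and 0 at an unadjusted p under 0.05. The sum of all 6 was 457 to 559 CPM in knockout and 413 to 577 CPM in control libraries. Ms4a1 made up most of that sum, at 318 to 436 CPM in knockout and 317 to 442 CPM in control libraries. Summed T cell markers stood at 11.4 to 14.7 CPM in knockout and 13.5 to 20.9 CPM in control libraries, NK cell markers at 0 to 1.97 CPM in knockout and 0 to 2.92 CPM in control libraries, and myeloid markers at 0.940 to 3.16 CPM in knockout and 1.07 to 2.53 CPM in control libraries, with Lyz2, Cd14, S100a8 and S100a9 at 0 in all libraries. Erythroid markers summed to at most 0.240 CPM, and the part of these cell types in the transporter values was not tested. In these bulk libraries more transcript per cell and more cells with the transcript cannot be told apart.

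Slc7a5 and Slc3a2 of the large neutral class, Slc7a1 and Slc7a3 of the cationic class and Slc38a7 of the small neutral class were higher in the knockout. In all, of the 10 genes 5 rose (Slc3a2, Slc7a5, Slc7a1, Slc7a3 and Slc38a7), 1 fell (Slc43a1) and 4 did not pass the test (Slc7a6, Slc1a4, Slc1a5 and Slc38a2). The test was edgeR's quasi-likelihood test at an adjusted p under 0.05 over all genes. In the same test 2.54% of the 9904 genes were higher and 3.19% lower, 5.74% in all. The median log2 fold change was 0.97 over the 10 genes and -0.01 over all genes tested. As the members were chosen with earlier results of these data known, these values describe the list and do not test it. By class, 2 of 3 large neutral members rose and 1 fell (median 1.82). Of the cationic members 2 of 3 rose (median 1.15), and of the small neutral ones 1 of 4 (median 0.52). The large neutral median is the value of Slc3a2. Its protein carries no substrate itself and is also the heavy chain for that of Slc7a6, a cationic member. Of the carriers proper in the large neutral class, Slc7a5 rose and Slc43a1 fell. All 4 knockout libraries lay above all 4 control libraries for 6 members and below them for 1, arrangements that 6.45% and 6.64% of all genes tested showed. The number of genes called over the whole table was 568, and it was 344, 270 and 344 without knockout replicate 1, 2 or 3, 368, 366 and 892 without control replicate 2, 3 or 4, and 901 without control replicates 1 and 4. Under those same omissions 4, 5, 5, 4, 5, 5 and 6 of the 10 members were called.

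**Figure D1:**
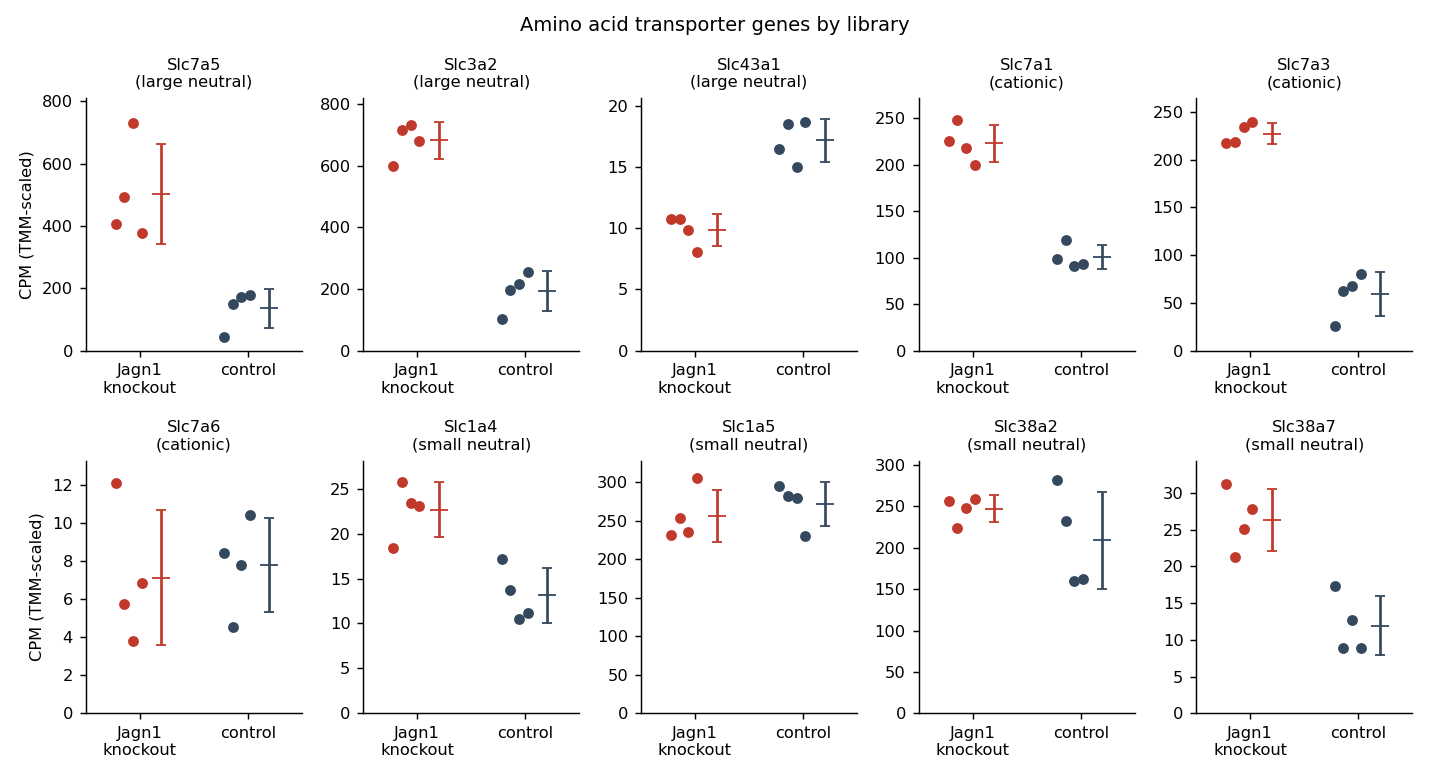
CPM on TMM-scaled totals (y axes, each from 0) of the 10 genes in 4 Jagn1 knockout libraries (red, left) and 4 control libraries (dark, right), with 1 point per library and the mean ± SD beside the points. The red points of Slc7a5, Slc3a2, Slc7a1, Slc7a3, Slc1a4 and Slc38a7 all lie above the dark ones, those of Slc43a1 all lie below, and the groups overlap for the other 3 genes.

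The summed 3′ tags of each class were compared by library. The 3 large neutral members together gave 1016, 1221, 1471 and 1065 CPM in knockout replicates 1 to 4, against 162, 366, 402 and 453 CPM in control replicates 1 to 4. The 3 cationic members gave 455, 472, 457 and 445 CPM in knockout libraries and 133, 186, 167 and 185 CPM in control libraries. The 4 small neutral members gave 538, 525, 533 and 616 CPM in knockout libraries and 612, 538, 463 and 412 CPM in control libraries. The knockout libraries lay above the controls in the sums of large neutral and cationic members. They overlapped with the controls in the sum of small neutral members. Each sum is carried by its most abundant genes. In the large neutral class Slc3a2, whose protein carries no substrate itself, gave 599 to 731 CPM in knockout and 103 to 255 CPM in control libraries. All 10 together ranged from 2009 to 2461 CPM in the knockout and from 907 to 1091 CPM in the control.

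Both subunits of the LAT1-CD98 dimer rose among the transporters of large neutral amino acids. Slc3a2, on chromosome 19 from 8706882 to 8723369 on the minus strand (GRCm38, the mm10 build, GENCODE M21), encodes the CD98 heavy chain, a glycoprotein that takes its light chains to the plasma membrane and carries no substrate itself. It stood at 599, 716, 731 and 679 CPM in knockout replicates 1 to 4, against 103, 198, 216 and 255 CPM in control replicates 1 to 4. The groups were far apart, with the lowest value of all in control replicate 1. It rose 3.53-fold, and its log2 fold change, 1.82 ± 0.22 (SE, edgeR adjusted p = 0.000135), was 1.61 without control replicate 1.

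Slc7a5, on chromosome 8 from 121881150 to 121907694 on the minus strand, encodes LAT1, the light chain that imports leucine, isoleucine, phenylalanine and other large neutral amino acids. It stood at 407, 493, 730 and 378 CPM in knockout replicates 1 to 4, against 43.1, 150, 171 and 179 CPM in control replicates 1 to 4. Knockout replicate 3 was the highest and control replicate 1 the lowest, and the groups did not overlap. It rose 3.70-fold (log2 fold change 1.89 ± 0.36 SE, edgeR adjusted p = 0.00783). The log2 value was 1.59 without control replicate 1, or 1.65 with both control replicates 1 and 4 left out. The adjusted p was 0.113 when no filter on low counts was applied, at a log2 fold change of 1.89, and under 0.05 in the other 17 alternatives.

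Slc43a1 moved the other way. The gene (chromosome 2, 84838850 to 84863594, plus strand) encodes LAT3, a uniporter of leucine and other large neutral amino acids that needs no heavy chain. Its level was 10.7, 10.8, 9.84 and 8.06 CPM in knockout replicates 1 to 4, against 16.4, 18.5, 15.04 and 18.7 CPM in control replicates 1 to 4. All knockout libraries lay below all control libraries, on 67 to 80 counts in knockout and 108 to 192 counts in control libraries. It fell by 0.80 ± 0.23 on the log2 scale (SE), with an edgeR adjusted p of 0.04999, just under the threshold. The call was lost under 11 of 18 alternatives, with an adjusted p of up to 0.141, among them every omission of 1 library except control replicate 1, while the fitted value stayed between -0.86 and -0.72.

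The bases before the RefSeq starts of Slc3a2 and Slc43a1 are shown because these genes moved in opposite directions. RefSeq promoter windows (GRCm38.p6, 250 bases before to 50 after a start) matched 7 of the 10 members, all but Slc7a5, Slc7a3 and Slc1a5. They were searched on both strands for TGATGNAA, the core of the element that ATF4 binds with its C/EBP partners, and for the E box CACGTG, which MYC and related factors bind, and no match of the first overlapped one of the second in these genes. Of 32851 promoter windows of this length 3.97% held the first and 7.15% the second. Neither was found in the Slc3a2 window, and Slc43a1 held an E box, in capitals, 64 to 59 bases before its start. These RefSeq starts lie 9472 bases (Slc3a2) and 1473 bases (Slc43a1) inside the gene bounds given above, which begin with the outermost GENCODE transcript, and which start the cells use was not measured. The Slc3a2 stretch is chr19:8713898-8714147 on the minus strand and the Slc43a1 stretch chr2:84840073-84840322 on the plus strand, each the 250 bases before the RefSeq start, 5′ to 3′.
Slc3a2: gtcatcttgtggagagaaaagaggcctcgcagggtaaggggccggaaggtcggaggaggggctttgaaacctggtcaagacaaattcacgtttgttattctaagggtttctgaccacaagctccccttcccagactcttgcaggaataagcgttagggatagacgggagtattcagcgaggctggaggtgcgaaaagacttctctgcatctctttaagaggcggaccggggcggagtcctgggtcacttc
Slc43a1: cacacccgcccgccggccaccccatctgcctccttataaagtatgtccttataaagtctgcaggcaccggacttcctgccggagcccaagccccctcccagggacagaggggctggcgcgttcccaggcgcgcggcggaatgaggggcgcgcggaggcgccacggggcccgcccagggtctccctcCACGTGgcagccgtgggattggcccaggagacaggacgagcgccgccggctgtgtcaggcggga

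Slc7a1 and Slc7a3, the CAT genes among the 10, rose among the transporters of cationic amino acids. Their relatives outside the 10 did not all do so. Slc7a2, another CAT gene, was not called (log2 fold change 0.08 ± 0.31 SE, edgeR adjusted p = 0.938, 95% interval -0.59 to 0.74). Slc7a7, a relative of Slc7a6, was not called either (-0.09 ± 0.25 SE, edgeR adjusted p = 0.903). Slc7a1, on chromosome 5 from 148327410 to 148399904 on the minus strand, encodes CAT1, the broadly expressed carrier of arginine and lysine. It stood at 225, 249, 219 and 200 CPM in knockout replicates 1 to 4, against 98.8, 120, 91.5 and 93.5 CPM in control replicates 1 to 4. It rose 2.21-fold (log2 fold change 1.15 ± 0.14 SE, edgeR adjusted p = 0.000195). The values within each group lay close together, and leaving out any 1 library kept the log2 fold change between 1.09 and 1.24. Its 2 RefSeq promoter windows held neither motif.

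Slc7a3, on chromosome X from 101079210 to 101086020 on the minus strand, encodes CAT3, a related carrier of arginine and lysine best known from the brain. It stood at 217, 218, 234 and 239 CPM in knockout replicates 1 to 4, against 26.0, 62.4, 68.1 and 80.6 CPM in control replicates 1 to 4. The knockout libraries differed little, with a highest over lowest ratio of 1.10, while the control libraries spread by a ratio of 3.10 with control replicate 1 the lowest. It rose 3.83-fold (log2 fold change 1.94 ± 0.25 SE, edgeR adjusted p = 0.000332), and the log2 value was 1.69 without control replicate 1. With all libraries it had the highest fitted value among the 10 genes, although its 95% interval of 1.39 to 2.48 overlapped with those of Slc7a5 (1.10 to 2.67) and Slc3a2 (1.36 to 2.28).

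Slc7a6 (chromosome 8, 106168857 to 106198706, plus strand) did not pass the test. It encodes y+LAT2, a light chain that needs the SLC3A2 heavy chain and exchanges cationic amino acids for neutral ones and sodium. Its level was 12.1, 5.75, 3.80 and 6.85 CPM in knockout replicates 1 to 4, against 8.43, 4.51, 7.80 and 10.4 CPM in control replicates 1 to 4. The groups overlapped, on 28 to 107 counts per library. The log2 fold change was -0.14 ± 0.38 (SE, edgeR adjusted p = 0.904), with a 95% interval of -0.94 to 0.66, and its sign changed under 3 of 18 alternatives. A change as large as that of Slc3a2 lies outside this interval.

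**Figure D2:**
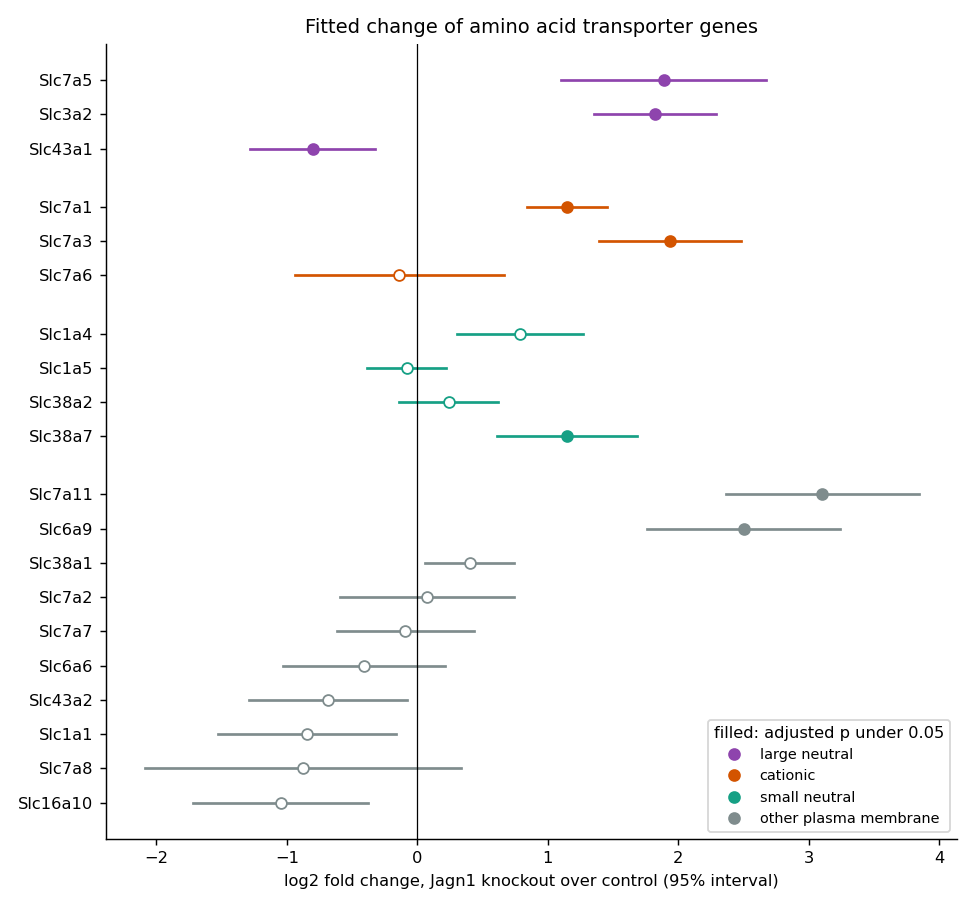
Fitted log2 fold change of Jagn1 knockout over control (x axis) with its 95% interval for the 10 genes by substrate class and for the 10 tested genes of the list of other plasma membrane amino acid transporters, from edgeR. Filled points have an adjusted p under 0.05, and Slc7a11 and Slc6a9, at 3.10 and 2.50, lie to the right of every member.

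Of the transporters of small neutral amino acids, Slc38a7 was higher, and Slc1a4, Slc1a5 and Slc38a2 did not pass the test. Slc38a7, on chromosome 8 from 95835920 to 95853539 on the minus strand, encodes SNAT7, which carries glutamine and asparagine and has been placed in the lysosomal membrane of human cells, so that its place at the plasma membrane is less certain than that of the others. It stood at 31.3, 21.3, 25.1 and 27.8 CPM in knockout replicates 1 to 4, against 17.3, 8.86, 12.7 and 8.86 CPM in control replicates 1 to 4. The groups did not overlap, on 148 to 233 counts in knockout and 55 to 123 counts in control libraries. It rose 2.21-fold (log2 fold change 1.15 ± 0.25 SE, edgeR adjusted p = 0.0124). The call was lost without knockout replicate 1 (0.0571) or without control replicate 2 (0.0512).

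Slc1a4, on chromosome 11 from 20302180 to 20332713 on the minus strand, encodes ASCT1, an exchanger of serine, alanine, cysteine and threonine. Its level was 18.4, 25.7, 23.3 and 23.1 CPM in knockout replicates 1 to 4, against 17.1, 13.7, 10.4 and 11.2 CPM in control replicates 1 to 4. The groups did not overlap, but knockout replicate 1 and control replicate 1 lay close to each other. The log2 fold change of 0.79 ± 0.23 (SE) missed the threshold with an edgeR adjusted p of 0.0550 and a 95% interval of 0.31 to 1.27. The gene passed under 5 of 18 alternatives, which were DESeq2 (0.0198), limma-voom (0.0109), a stricter filter on low counts (0.0496), the omission of control replicate 1 (0.0134) and that of control replicates 1 and 4 (0.0218).

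Slc1a5 (chromosome 7, 16781340 to 16798274, plus strand) encodes ASCT2, a main importer of glutamine in dividing cells. It stood at 231, 254, 236 and 306 CPM in knockout replicates 1 to 4, against 296, 282, 280 and 230 CPM in control replicates 1 to 4. The groups overlapped, and the log2 fold change was -0.08 ± 0.14 (SE, edgeR adjusted p = 0.832). Its 95% interval of -0.39 to 0.22 does not reach the fitted rise of any of the 5 genes that rose.

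Slc38a2, on chromosome 15 from 96687392 to 96699730 on the minus strand, encodes SNAT2, the sodium-coupled carrier of alanine, serine and glutamine whose gene is known to respond to amino acid shortage. It stood at 257, 224, 249 and 260 CPM in knockout replicates 1 to 4, against 282, 233, 160 and 162 CPM in control replicates 1 to 4. Control replicate 1 lay above all knockout libraries and control replicates 3 and 4 lay below them. Its fitted log2 difference was 0.24 ± 0.18 (SE, edgeR adjusted p = 0.527), with a 95% interval of -0.14 to 0.62, and 0.42 (adjusted p = 0.0922) without control replicate 1.

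Among the promoter windows searched, that of Slc1a4 was the only one of a member with the ATF4 core. It is shown beside that of Slc7a11, which held the core in both orientations. Slc7a11 is not a member and was picked by name with earlier results known. The window of Slc6a9, the other called transporter outside the members, was not examined. In Slc1a4 the match, on the minus strand of the gene, runs across the start, from 4 bases before it to 4 after it, and the 30 bases shown are chr11:20332699-20332728 on the minus strand. The 45 bases of Slc7a11, chr3:50443644-50443688 on the minus strand, begin 75 bases before its start. The 250 bases before the RefSeq start of Slc38a7 are chr8:95853492-95853741 on the minus strand, and that start lies 48 bases inside its GENCODE bounds. These bases held an E box, as did those before the start of Slc43a1. Whether either match bears on the level of its gene was not tested. The windows of Slc38a2 and Slc7a6 held neither motif, and bases outside the windows were not searched. Capitals mark the matches, which are descriptions of letters and not sites.
Slc1a4: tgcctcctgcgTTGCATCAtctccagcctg
Slc7a11: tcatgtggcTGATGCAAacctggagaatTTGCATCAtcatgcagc
Slc38a7: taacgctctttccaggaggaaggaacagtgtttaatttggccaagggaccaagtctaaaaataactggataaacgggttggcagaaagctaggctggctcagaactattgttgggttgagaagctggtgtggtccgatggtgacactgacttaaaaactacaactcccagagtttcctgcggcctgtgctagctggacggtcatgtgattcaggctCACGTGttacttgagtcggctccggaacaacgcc

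Control replicate 1 set the range of the control group in most of the 10 genes, and in both directions. It had the lowest control value of Slc7a5, Slc3a2 and Slc7a3, at 1.65, 0.91 and 1.19 log2 units below the control mean. It had the highest control value of Slc1a4, Slc1a5, Slc38a2 and Slc38a7, at 0.39, 0.12, 0.43 and 0.54 log2 units above it. In the knockout group the values of Slc7a5, Slc3a2 and Slc7a3 ran from 1.48 to 2.43, from 1.63 to 1.92 and from 1.87 to 2.01 log2 units above the control mean. Without control replicate 1 the genes Slc7a5, Slc3a2, Slc7a1, Slc7a3, Slc38a7 and Slc1a4 were called higher and Slc43a1 lower. Without control replicates 1 and 4 the same 6 were called higher, and Slc43a1 was not called (adjusted p = 0.0806).

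**Figure D3:**
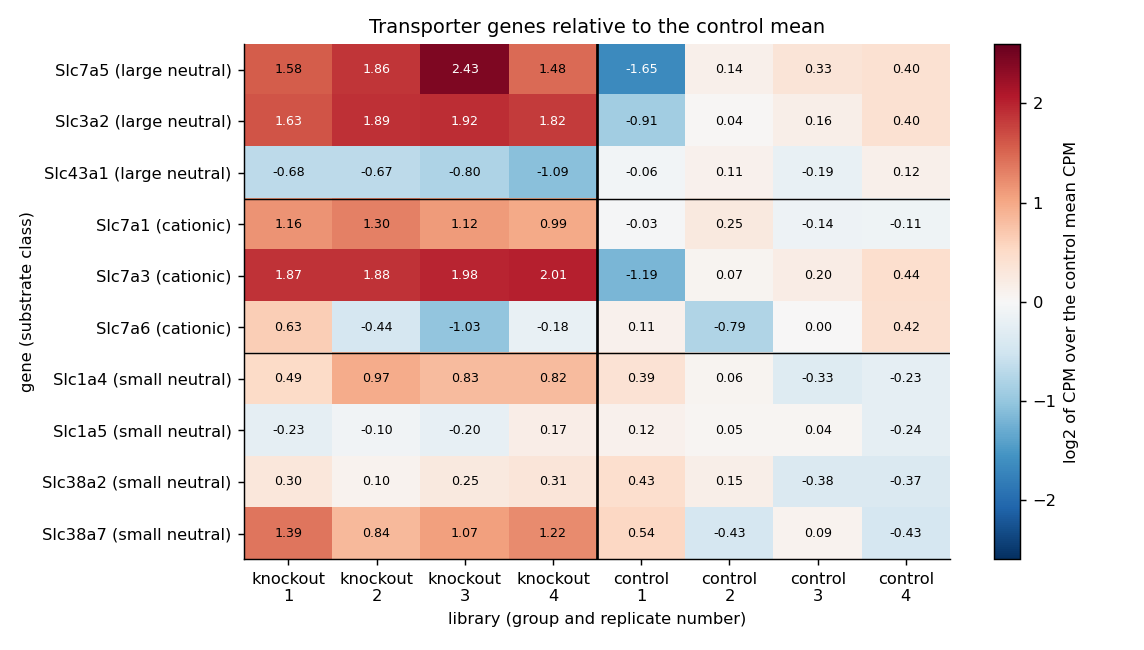
Log2 of the CPM of each library over the mean CPM of the 4 control libraries (colour and printed value) for the 10 genes (rows, by substrate class) in the knockout libraries (left of the line) and the control libraries (right of it). Slc7a5, Slc3a2 and Slc7a3 are at -1.65, -0.91 and -1.19 in control replicate 1, where Slc38a2 and Slc38a7 are at 0.43 and 0.54.

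Whether members changed by unequal amounts was tested with 7 ratios between pairs of genes within each library, each compared between the groups with an exact two-sided permutation test over the 70 arrangements of the libraries. The smallest p this allows is 0.0286, and 4 of the 7 ratios reached it, with a Benjamini-Hochberg adjusted value of 0.05, which is at and not under the threshold, so none passed. The log2 ratio of Slc7a6 over Slc3a2, a light chain over its heavy chain, was -6.64 ± 0.79 in knockout and -4.57 ± 0.75 in control libraries, a difference of -2.08 (exact permutation p = 0.0286). That of Slc7a5 over Slc43a1 was 5.59 ± 0.41 in knockout and 2.77 ± 0.95 in control libraries, a difference of 2.82 (exact permutation p = 0.0286). That of Slc7a3 over Slc7a1 was 0.03 ± 0.19 in knockout and -0.87 ± 0.76 in control libraries, a difference of 0.90 (exact permutation p = 0.0286). That of Slc1a4 over Slc1a5 was -3.49 ± 0.21 in knockout and -4.37 ± 0.26 in control libraries, a difference of 0.88 (exact permutation p = 0.0286; all SD, n = 4 each). In these 4 ratios the groups did not overlap. For Slc7a5 over Slc43a1 this was fixed beforehand, as every knockout library lay above the controls for Slc7a5 and below them for Slc43a1. The p of that ratio therefore adds nothing to the values of the single genes. The difference for Slc7a3 over Slc7a1 was 0.55 without control replicate 1.

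The ratio of the LAT1 light chain to its heavy chain did not separate the groups. The log2 ratio of Slc7a5 over Slc3a2 was -0.56, -0.54, -0.00155 and -0.85 in knockout replicates 1 to 4 and -1.24, -0.40, -0.33 and -0.51 in control replicates 1 to 4. The difference was 0.14 (exact permutation p = 0.686, adjusted 0.686), and -0.07 without control replicate 1. For Slc7a1 over Slc7a5, a cationic over a large neutral carrier, it was -0.88 (exact permutation p = 0.143, adjusted 0.167), and -0.41 without control replicate 1. For Slc38a2 over Slc1a5 it was 0.37 (exact permutation p = 0.114, adjusted 0.16), higher in the mean of the knockout libraries but with overlap.

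**Figure D4:**
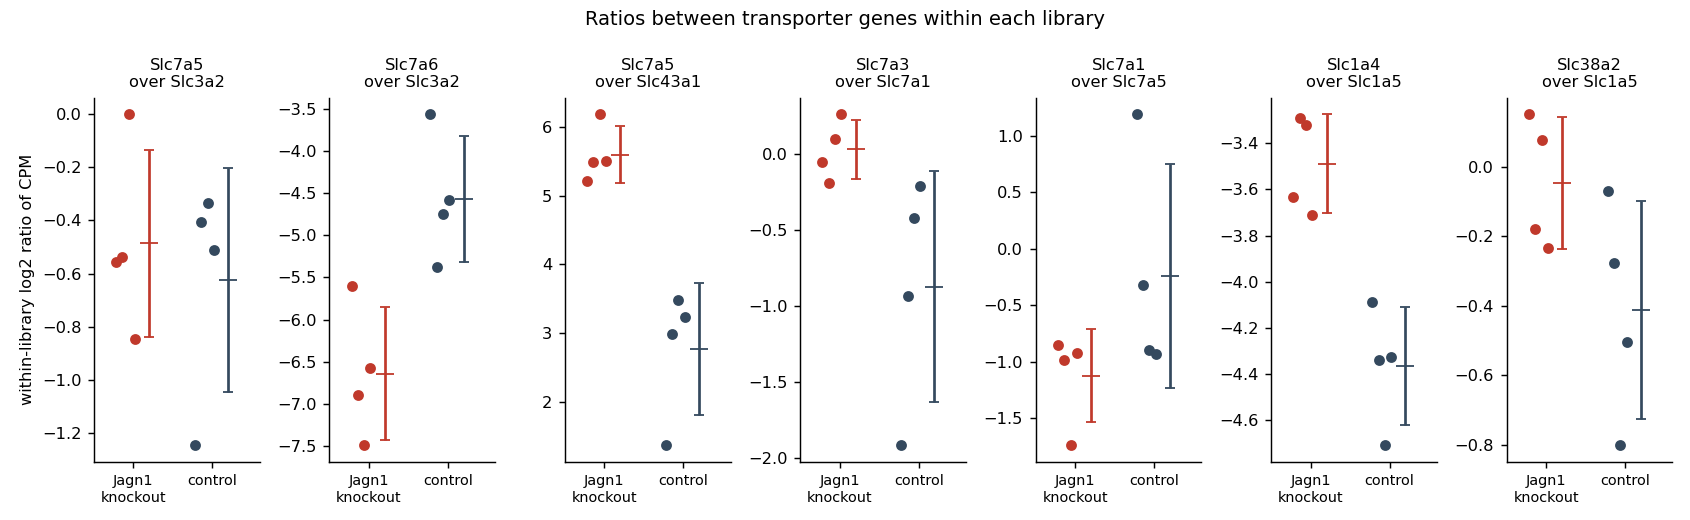
Within-library log2 ratio of CPM (y axes, with their own ranges) for 7 pairs of transporter genes in 4 Jagn1 knockout libraries (red, left) and 4 control libraries (dark, right), with the mean ± SD beside the points. The groups are apart for Slc7a6 over Slc3a2, Slc7a5 over Slc43a1, Slc7a3 over Slc7a1 and Slc1a4 over Slc1a5, and overlap in the other 3 pairs.

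Other amino acid transporters were read from the same fit. Of 30 further plasma membrane transporters, all among the symbols, 12 had no count in any library and 10 were tested. Of these 2 were higher and 0 lower in edgeR, the median log2 fold change was -0.25, and 6 genes were at an unadjusted p under 0.05. Over all genes tested 2.54% were higher, 3.19% were lower and 18.0% were at an unadjusted p under 0.05. DESeq2, limma-voom and edgeR without control replicate 4 each also called 1 lower, Slc16a10, the aromatic amino acid carrier TAT1. Chosen after its values were seen, that gene stood at 3.49 to 4.57 CPM in knockout and 6.77 to 9.27 CPM in control libraries. Slc7a11 encodes xCT, the cystine-glutamate exchanger that, like LAT1, is a light chain of SLC3A2, and it stood at 40.4, 33.4, 25.1 and 30.7 CPM in knockout replicates 1 to 4, against 1.12, 5.64, 3.76 and 4.48 CPM in control replicates 1 to 4. Its log2 fold change was 3.10 ± 0.35 (SE, edgeR adjusted p = 7.27e-05), above that of every member. Slc6a9 encodes GlyT1, the sodium-coupled glycine transporter, and stood at 29.1, 40.4, 32.5 and 32.5 CPM in knockout replicates 1 to 4, against 4.50, 9.35, 8.22 and 2.14 CPM in control replicates 1 to 4. Its log2 fold change was 2.50 ± 0.35 (SE, edgeR adjusted p = 0.000441), and 1.94 without control replicates 1 and 4. For both genes every knockout library lay above every control library, and the calls held in all 18 alternatives.

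No gene on the lists of lysosomal and mitochondrial carriers was called in the edgeR fit to all 8 libraries with the filter on low counts. Slc38a7, a member placed in the lysosomal membrane of human cells, was not on these lists and was called higher in that fit. Of 9 lysosomal amino acid transporters among the symbols 7 were tested (median log2 fold change 0.19), with 2 at an unadjusted p under 0.05, which 18.0% of all genes tested reached, and 1 called by DESeq2, Slc15a3, and 0 by limma-voom. Of 11 mitochondrial carriers 8 were tested (median -0.07), with 1 at an unadjusted p under 0.05 in edgeR and 0 called by DESeq2 or limma-voom. At the smallest p in each list, Slc15a3, a lysosomal carrier of histidine and peptides, differed by 0.90 ± 0.27 on the log2 scale (SE, adjusted p = 0.0638 in edgeR) and Ctns, the lysosomal cystine exporter, 0.93 ± 0.33 (0.125). Slc25a38, the mitochondrial glycine carrier, had 0.93 ± 0.37 (0.179) and Slc25a13, an aspartate-glutamate carrier, -1.04 ± 0.50 (0.287). In other edgeR fits Slc15a3 passed with no filter on low counts (adjusted p = 0.0432) and without knockout replicate 4 (0.0353), Ctns without control replicate 4 (0.0333) and Slc25a38 without control replicates 1 and 4 (0.0333, at a log2 fold change of 1.46).

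The regulators known to act on transporter genes were measured in the same libraries. Atf4 stood at 2295, 2697, 2439 and 2188 CPM in knockout replicates 1 to 4, against 2268, 1462, 1279 and 849 CPM in control replicates 1 to 4. The groups overlapped through control replicate 1 alone. Its log2 fold change was 0.72 ± 0.22 (SE, edgeR adjusted p = 0.0787). The gene passed under 5 of 18 alternatives, which were DESeq2 (adjusted p = 0.0359), limma-voom (0.000341), the replicate block (0.0283), the omission of control replicate 1 (0.000382, at a log2 fold change of 1.01) and that of control replicates 1 and 4 (0.000398). Myc was low, at 1.44 to 2.95 CPM in knockout and 0.974 to 8.71 CPM in control libraries, and its log2 difference was -0.62 ± 0.64 (SE, edgeR adjusted p = 0.682). Its highest value was again in control replicate 1, and its sign changed under 3 of 17 alternatives, at 0.35 without control replicate 1, 0.06 with limma-voom and 0.04 without control replicates 1 and 4. Both concern transcripts, and protein levels were not measured.

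**Figure D5:**
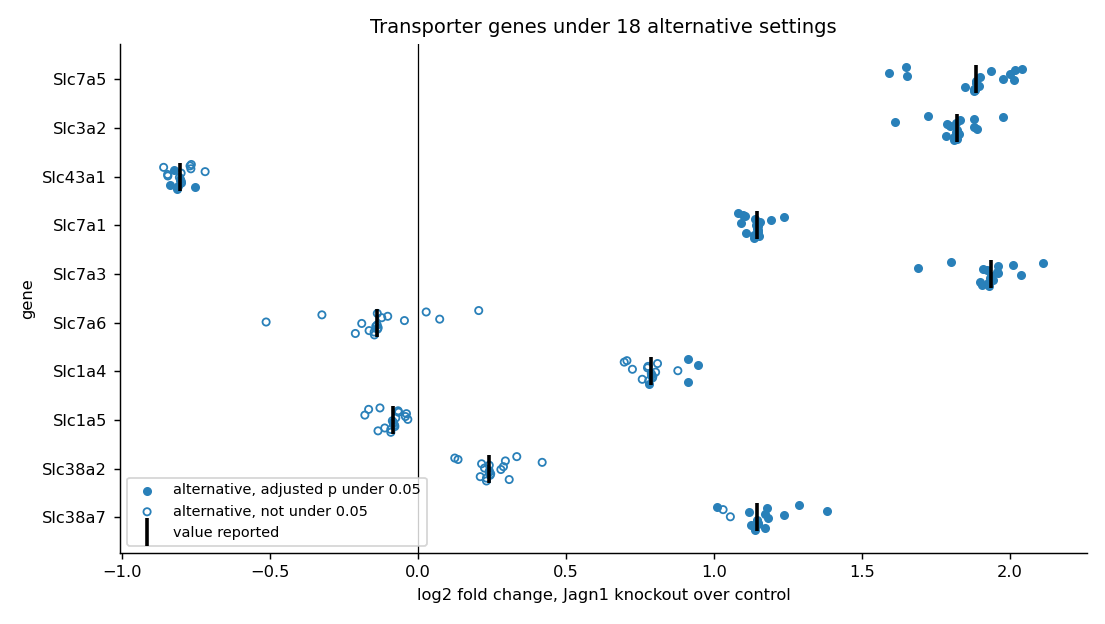
Log2 fold change of Jagn1 knockout over control (x axis) for each of the 10 genes in the fit reported (black bar) and under 18 alternative settings (circles, filled where the adjusted p was under 0.05). Slc3a2, Slc7a1 and Slc7a3 are filled throughout, Slc43a1 keeps its side of 0 with mostly open circles, and Slc7a6 crosses 0.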

How the data were processed

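Per the labels' protocols, Trizol RNA of the sorted cells (500 ng) was made into libraries with Lexogen's forward QuantSeq 3′ kit. The authors deposited raw read counts per gene symbol, 1 file per library. The submitters' processing notes name TopHat2 2.1.1, HTSeq 0.6.1, BWA 0.7.12, SAMtools 1.3.1 and mm10, without annotation or strand setting. A 3′ tag stands for a transcript end, so counts were not divided by length, and without molecular identifiers they may include PCR copies.

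Genes were filtered with filterByExpr (minimum count 10, minimum total 15), scaled by TMM and tested with edgeR 4.0.16 (R 4.3.3), using its two-sided quasi-likelihood test with robust estimation and no covariate, Benjamini-Hochberg adjustment over all genes and a threshold of 0.05. Standard errors are the log2 fold change over the square root of F, and 95% intervals use the fit's degrees of freedom. Log2 CPM for ratios used a prior count of 2. Replicates of a group differed beyond sampling noise (chi-square per degree of freedom 6.60 to 94.2). No annotated exon of the 10 genes overlapped another gene in GENCODE M21. Alternatives were DESeq2 1.42.0, limma-voom 3.58.1 with sample weights, other scalings and filters, no robust estimation, a replicate block and left-out libraries.

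The members and lists were chosen with earlier results of these data known. The genes named are the 10 members, Jagn1, Atf4 and Myc, and the called genes of each list of other transporters. For a list without a call, the 2 of lowest p are named. Slc7a2 and Slc7a7 were added after their values were seen. Slc66a1 was read under its older symbol, Pqlc2.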

Additional observations from a re-analysis of the deposited data

Results flagged for a closer look

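Of 52 groups of 4 values checked for a library far from the other libraries of its group (by Dixon's 95% criterion), 1 was singled out, and chance alone gives about 1 in 20. The log2 ratio of Slc7a1 over Slc7a5 was -1.74 in knockout replicate 3, against -0.99 to -0.85 in the other knockout libraries. Slc7a5 was at 730 CPM in that library and 378 to 493 CPM in the other knockout libraries, while Slc7a1 was at 219 CPM, within the range of 200 to 249 CPM of the others.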

How the results depend on the processing

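Across 18 alternatives no called gene among the 10 changed sign. Slc3a2, Slc7a1 and Slc7a3 kept their calls in all 18, Slc7a5 in 17, Slc38a7 in 16 and Slc43a1 in 7. The count of all genes called was 858 with DESeq2, 1054 with limma-voom, 901 without control replicates 1 and 4, and 270 to 892 when 1 library was left out. The count of the 10 genes called was 4 to 7 when 1 library was left out, and that of the other transporters was 4 with DESeq2 and 2 to 4 when 1 library was left out. None of the 7 ratios passed after adjustment under a prior count of 0.5 or with 1 library left out (differences for Slc7a5 over Slc3a2 from -0.07 to 0.26). The smallest p the exact permutation test allows was again 0.0286, so passing needed more ratios at that p than the 4 of the main test. That none passed therefore says little about stability. Whether the replicate numbers mark pairs was not known. Same-numbered deviations correlated at 0.04, -0.00342, 0.04 and 0.07, and 2 of 4 knockout libraries correlated best with their own number, which does not settle it. With a replicate block 509 genes, 5 of the 10 members and 2 other transporters were called, and Slc43a1 had an adjusted p of 0.0952. Slc7a6, at 28 to 107 counts per library, had the largest standard error of the 10 (0.38 on the log2 scale), but Slc7a5, at 307 to 5569 counts, had 0.36 and Slc43a1, at 67 to 192 counts, 0.23, so the errors did not follow depth alone.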
